A study of Arabidopsis thaliana with 21 samples.

Results

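Embryos of the asil2-2 mutant, which is in the Landsberg erecta (Ler) ecotype of Arabidopsis thaliana, were compared with embryos of the asil2-1 mutant, which is in Columbia-0 (Col-0). The comparison takes 6 of the 21 libraries of the series, chosen by their titles, with 3 biological replicates for each mutant. It was set beside the same ecotype contrast in wild-type embryos, with 3 libraries of Ler and 3 of Col-0. The 4 groups share no library, so the wild types measure the same ecotype contrast a second time. The series profiled RNA at the late heart stage of embryos with mutations in the trihelix genes ASIL1 and ASIL2. Per the labels, asil2-2 and Ler have the ecotype Landsberg erecta, and asil2-1 and Col-0 have the ecotype Columbia. Both mutants carry an allele of the same gene, so the contrast differs from the wild-type one at least in the 2 alleles. Whether each mutant otherwise shares the genome of its wild type was not tested. The alleles' lesions and the number of plants pooled per library are not given in the labels. Embryos were dissected by hand, washed and collected on a Percoll gradient. All plants grew under the same stated conditions, with 16 h of light at 22 °C.

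Landsberg erecta and Columbia are inbred accessions whose genomes differ by many substitutions, insertions, deletions and rearrangements. Immune receptor genes of the nucleotide-binding leucine-rich repeat (NLR) type and the genes of glucosinolate defence chemistry are known for presence and absence differences between accessions. Ler also carries a point mutation in ERECTA (ER), a receptor-like kinase of organ growth and stomatal patterning. ASIL1 and ASIL2 encode trihelix transcription factors, best known for holding back seed maturation genes in young embryos and seedlings. The genome build named with the counts, TAIR10, is a Columbia sequence. How far sequence differences between the accessions change the number of reads counted for a gene was not tested, and they cannot be told apart here from differences in RNA level.

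The 12 libraries held between 4317564 and 8185801 counts, with 6157937 to 8185801 in asil2-2, 4813128 to 6204343 in asil2-1, 4990805 to 5413420 in Ler and 4317564 to 5771190 in Col-0. No library stood apart within its group in correlation, though asil2-1 replicate 1 and Col-0 replicate 3 were high in heat shock genes. Pearson's r of log2(CPM + 1), with CPM as the counts scaled to a common library size, ran over genes from 0.972 to 0.983 within groups. It was 0.934 to 0.952 between asil2-2 and asil2-1 libraries and 0.941 to 0.948 between Ler and Col-0 libraries, but 0.972 to 0.981 between asil2-2 and Ler and 0.966 to 0.982 between asil2-1 and Col-0. Libraries therefore resembled their own ecotype more closely than their fellow mutant. All 8 embryo marker genes, among them LEC1, FUS3 and WOX2, were detected in every group, and their summed level was 582 to 640 CPM in asil2-2 and 547 to 574 CPM in asil2-1.

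The mutated gene was read first. ASIL2 (AT3G14180, chr3:4706802-4709176) had 10.0, 9.78 and 10.2 CPM in the 3 asil2-2 libraries, against 49.6, 40.7 and 38.5 CPM in the asil2-1 libraries. Every asil2-2 library lay below every asil2-1 library, and ASIL2 was lower in asil2-2 by a log2 fold change of -2.10 ± 0.13 (SE, n = 3 each, edgeR adjusted p = 8.77e-09). The wild types had 55.3, 52.1 and 52.3 CPM in Ler and 57.5, 49.5 and 50.7 CPM in Col-0. The libraries labelled asil2-1 thus kept ASIL2 counts near those of Col-0, and because the lesions are not given, a count over the whole gene model does not check the asil2-1 label. ASIL1 (AT1G54060) had 50.1, 52.8 and 69.8 CPM in asil2-2, against 47.4, 36.8 and 39.9 CPM in asil2-1. Its log2 fold change was 0.47 ± 0.14 (edgeR adjusted p = 0.0359), a call that was lost without asil2-2 replicate 2 or 3 or asil2-1 replicate 2 or 3, with an adjusted p of up to 0.227 over all alternatives. ER (AT2G26330), the gene with the known Ler mutation, had 464, 499 and 497 CPM in asil2-2 and 387, 474 and 461 CPM in asil2-1. These ranges overlapped, and the log2 fold change of 0.14 ± 0.08 did not pass (edgeR adjusted p = 0.316).

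Of 17546 gene models tested, 2016 (11.5%) were called in asil2-2 against asil2-1 with edgeR's quasi-likelihood test. Of these, 806 were higher in asil2-2, 4.59% of the models tested, and 1210 were lower, 6.9%. In Ler against Col-0, 2073 models (11.8%) were called, 850 (4.84%) higher in Ler and 1223 (6.97%) lower. The median log2 fold change over all tested models was 0.0053 in the mutants and -0.00061 in the wild types. With all 21 libraries of the series in the fit, 2 of which stand apart, the counts were 866 in the mutants and 907 in the wild types. In bulk embryos, fewer cells of a type and less RNA per cell cannot be told apart for any of these genes.

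Most calls were shared with the wild types. Both contrasts called 1260 models in the same direction, 488 higher and 772 lower, and called 0 models in opposite directions. The shared models are 62.5% of the calls in the mutants and 60.8% of the calls in the wild types. Of the 2016 models called in the mutants, 1967 (97.6%) had the same sign in the wild types, against 66.7% of the 15530 models not called in the mutants. For 1617 of them (80.2%) the 3 Ler libraries lay wholly above or wholly below the 3 Col-0 libraries in that same direction, and for 4 in the opposite one. Among all tested models, asil2-2 and asil2-1 libraries failed to overlap in 27.5% and Ler and Col-0 libraries in 30.5%, in either direction.

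The share of calls also made in the wild types rose with the size of the difference. Of 1111 models called with an absolute log2 fold change of 1 or less, 52.5% were also called in the wild types in the same direction. The share was 74.8% of 905 models over 1, 88.5% of 407 models over 2 and 91.6% of 226 models over 3. Larger changes are also easier to call, with 72% of simulated 2-fold and 99% of simulated 4-fold changes recovered in the mutant contrast. The part of this in the rising share was not tested. Across the 2016 called models, the log2 fold changes of the 2 contrasts had a Pearson r of 0.932 and a Spearman rho of 0.940. Across all 17546 models these were 0.843 and 0.591. These are descriptions across genes, which are not independent replicates.

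**Figure D1:**
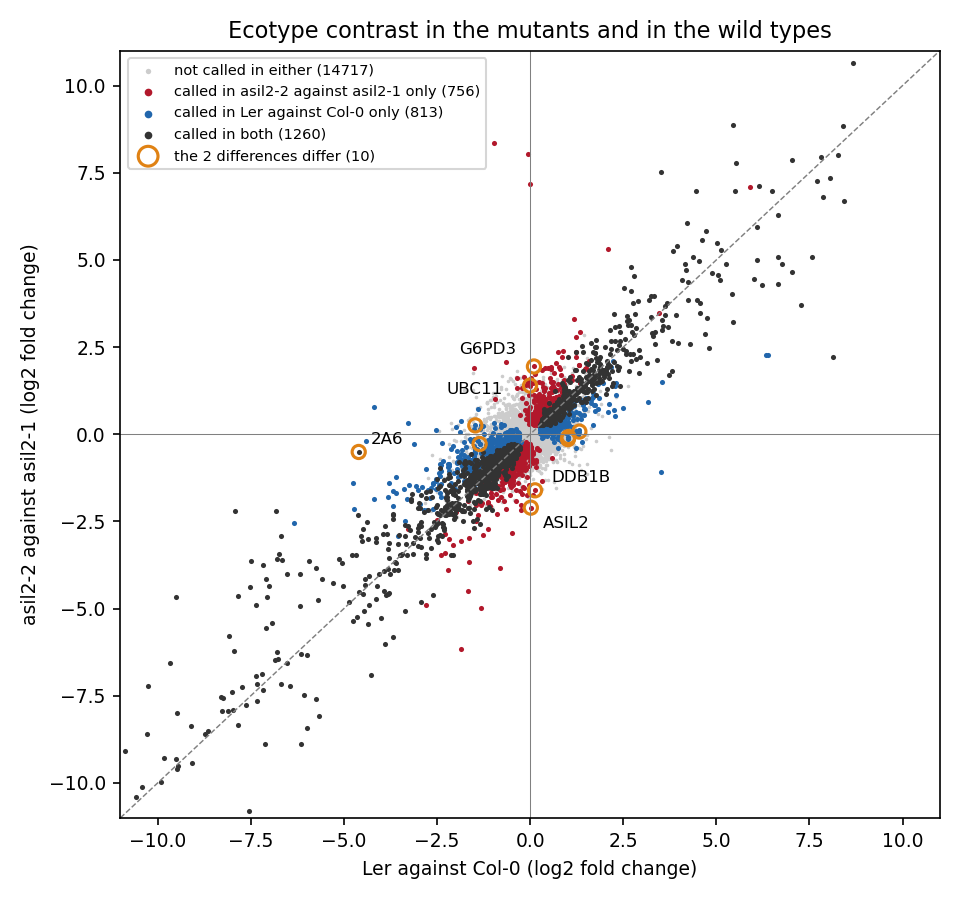
Log2 fold change of each tested gene model in asil2-2 against asil2-1 (vertical axis) and in Ler against Col-0 (horizontal axis), coloured by which contrast called it; the dashed line marks equal values and open circles mark the 10 models whose differences differed. The 1260 models called in both lie along the dashed line, and none of them has opposite signs.

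Several genes were read almost solely in 1 ecotype. The 8 largest rises in asil2-2 were led by AT4G19240, a gene of unknown function on chromosome 4, with 124, 124 and 140 CPM in asil2-2, against 0, 0 and 0.172 CPM in asil2-1. That is 2714 counts against 1, a ratio of 2170 (exact 95% interval 390 to 85800). Ler had 126, 126 and 106 CPM and Col-0 at most 0.439 CPM, so all Landsberg libraries were high and all Columbia libraries were near 0. AT1G24388, also of unknown function, had 1077 counts in asil2-2 against 3 in asil2-1, a ratio of 287 (98.1 to 1400), and 750 counts in Ler against 2 in Col-0.

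The other large rises showed the same split. AT1G27570, which the annotation calls a phosphatidylinositol kinase family protein, had 39.8, 47.9 and 44.1 CPM in asil2-2, against 0.798, 0 and 0 CPM in asil2-1, and 33.7 to 45.1 CPM in Ler against at most 1.14 CPM in Col-0. AT5G18840, a transporter of the major facilitator superfamily, rose by a log2 fold change of 5.30 ± 0.60, TET15, a tetraspanin, by 5.26 ± 0.35, AT5G50050, a pectin methylesterase or invertase inhibitor, by 4.43 ± 0.30 and AT4G29760 by 3.84 ± 0.28. RPP7, an NLR receptor, is described with its family. Among the further rises with a gene symbol, FOLT1, a folate transporter, had 64.5, 65.7 and 57.2 CPM in asil2-2, against 9.58, 11.4 and 11.2 CPM in asil2-1 (log2 fold change 2.55 ± 0.12, edgeR adjusted p = 6.20e-10). FOLT1 was at 52.3 to 59.3 CPM in Ler and 10.5 to 11.4 CPM in Col-0, so each mutant stood near its own wild type. FH3, a formin that nucleates actin filaments, rose by 3.42 ± 0.45, ATPMEPCRB, annotated with the pectin methylesterase inhibitors, by 3.08 ± 0.22, the cell wall enzyme XTH1 by 2.85 ± 0.37 and RR13, a cytokinin response regulator, by 2.50 ± 0.32. All 14 rises so named, with the NLR genes RPP7 and RPP4 among them, were called in Ler against Col-0 as well.

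The largest falls were as sharp. AT5G49440, a gene of unknown function, had 0 counts in the 3 asil2-2 libraries, against 36.1, 41.3 and 40.2 CPM in asil2-1, and was at least 275-fold lower in asil2-2. Ler held 3 counts of it and Col-0 held 594. AT5G46510, an NLR gene without a symbol, had 2 counts in asil2-2 against 1238 in asil2-1, with asil2-1 higher by a ratio of 773 (214 to 6390), and 1 count in Ler against 1169 in Col-0. AT1G52695, an alpha/beta hydrolase, had 3 counts in asil2-2 against 500 in asil2-1, a ratio of 208 (70.8 to 1010). The copper amine oxidase AT3G43670 fell by 4.88 ± 0.29 on the log2 scale, AT4G20480 by 4.82 ± 0.32 and AT2G20170 by 4.33 ± 0.41. RPP2A and RPP2B complete the 8 largest falls.

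Further falls included well-studied regulators. NPR1, the salicylic acid receptor and coactivator of systemic immunity, had 4.27, 4.601 and 3.34 CPM in asil2-2, against 26.0, 28.3 and 28.2 CPM in asil2-1 (log2 fold change -2.74 ± 0.17, edgeR adjusted p = 1.10e-08). It had 6.12, 5.52 and 4.55 CPM in Ler and 25.9, 28.5 and 25.5 CPM in Col-0, so all 6 Landsberg libraries were low. CDKB1;2, a mitotic cyclin-dependent kinase, had 3.66, 3.02 and 3.84 CPM in asil2-2, against 35.9, 31.8 and 31.6 CPM in asil2-1 (-3.23 ± 0.17, edgeR adjusted p = 1.61e-09). Its close copy CDKB1;1 could share its reads, but the sum over both copies was also lower, at 39.7, 33.4 and 36.7 CPM in asil2-2, against 78.2, 66.9 and 73.7 CPM in asil2-1. LUL1, a RING ubiquitin ligase, fell by 3.12 ± 0.28 and PHI-1 by 2.92 ± 0.27. All 14 named falls were called in Ler against Col-0 in the same direction.

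NLR immune receptors, intracellular proteins that detect pathogen effectors, differed in both directions. Of 34 listed genes, 26 passed the filter on low counts and 12 of these (46.2%, against 11.5% of all tested models) were called, 4 higher and 8 lower. Their median log2 fold change was -0.03, beside 0.0053 for all models, and turned positive without asil2-2 replicate 3 (0.04) or asil2-1 replicate 2 (0.02). In Ler against Col-0, 3 were higher and 8 lower, and the calls were shared by 11 genes. The counts of 4 and 8 were the same with each of the 12 libraries left out in turn. Paralogs stand in clusters and could share reads, so a level of a single NLR gene is uncertain.

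The pair CHS3 and CSA1, neighbours on chromosome 5 whose proteins are known to act together, had no reads in the mutant of Landsberg background. CHS3 (AT5G17890) had 0 counts in asil2-2, against 23.3, 24.8 and 25.1 CPM in asil2-1, and was at least 172-fold lower. CSA1 (AT5G17880) had 0 counts in asil2-2, against 10.2, 11.6 and 9.28 CPM in asil2-1, and was at least 72.5-fold lower. Ler had 0 counts of CHS3 and 2 of CSA1, against 435 and 157 in Col-0.

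RPP2A and RPP2B, a second pair of neighbours, which together confer resistance to downy mildew, were low but not absent. RPP2A (AT4G19500) had 3.05, 3.60 and 2.00 CPM in asil2-2, against 53.8, 46.1 and 56.3 CPM in asil2-1 (log2 fold change -4.15 ± 0.18, edgeR adjusted p = 1.78e-10). RPP2B (AT4G19510) had 0.732, 1.29 and 0.334 CPM in asil2-2, against 32.7, 35.5 and 33.2 CPM in asil2-1 (-5.36 ± 0.33, edgeR adjusted p = 7.91e-09). For both genes every Landsberg library, mutant or wild type, lay below every Columbia library. The falls of WRR4A (-2.54 ± 0.36), a resistance gene against white rust, RPP1 (-1.18 ± 0.20) and RPS6 (-0.73 ± 0.13) were smaller.

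The opposite direction was shown by 4 receptors. RPP7 (AT1G58602) had 42.2, 42.3 and 37.6 CPM in asil2-2, against 2.39, 2.27 and 1.03 CPM in asil2-1 (log2 fold change 4.41 ± 0.24, edgeR adjusted p = 1.67e-09). RPP4 rose by 2.52 ± 0.31 and its cluster neighbour RPP5 by 1.81 ± 0.19. ZAR1, which forms the resistosome channel, had 54.4, 52.6 and 63.9 CPM in asil2-2, against 21.9, 20.7 and 26.6 CPM in asil2-1 (1.301 ± 0.12, edgeR adjusted p = 1.80e-06). ZAR1 was at 39.2 to 44.96 CPM in Ler and 31.0 to 34.6 CPM in Col-0, a log2 fold change of 0.38 that did not pass (edgeR adjusted p = 0.0589), and the difference between the 2 contrasts was not called for it.

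**Figure D2:**
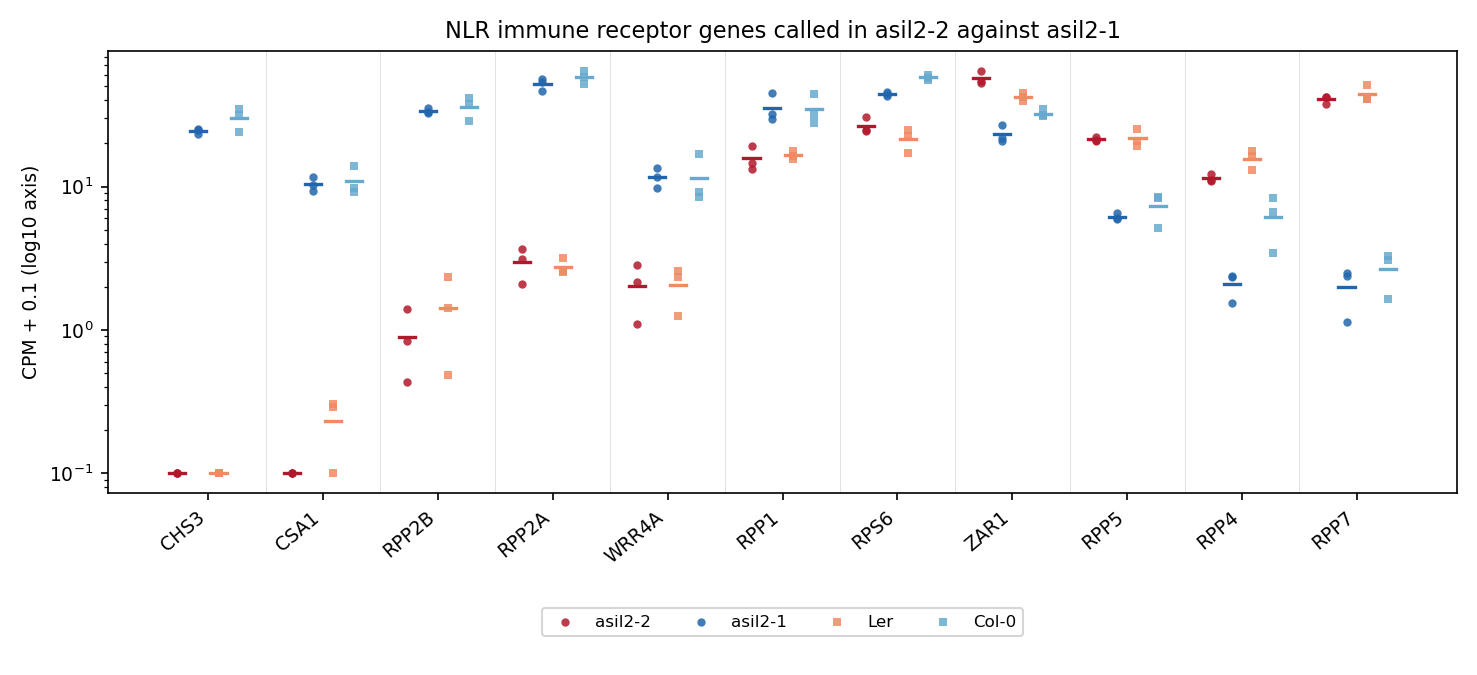
Level of 11 called NLR genes in each library, as CPM + 0.1 on a log10 axis, for asil2-2, asil2-1, Ler and Col-0 from left to right within each gene; points are libraries and bars are means of 3. CHS3 and CSA1 have no reads in asil2-2, and RPP7 is above 37 CPM in asil2-2 and below 3 CPM in asil2-1.

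The 250 bases before the annotated start of these receptors are shown for both neighbour pairs and for RPP7. The NLR gene AT5G46510, which differed more than RPP2A, RPP2B and RPP7, is not shown. They were read from the TAIR10.1 genome, which is Columbia, so the Landsberg sequence is not shown. The capitals mark the core of the W-box, TTGAC on either strand (written GTCAA on the other one), which WRKY factors of immune regulation are known to bind. The window before CSA1 is chr5:5913318-5913567 on the minus strand and that before CHS3 is chr5:5916612-5916861 on the plus strand. The windows before RPP2A (chr4:10625312-10625561), RPP2B (chr4:10633369-10633618) and RPP7 (chr1:21746104-21746353) are all on the plus strand.
CSA1: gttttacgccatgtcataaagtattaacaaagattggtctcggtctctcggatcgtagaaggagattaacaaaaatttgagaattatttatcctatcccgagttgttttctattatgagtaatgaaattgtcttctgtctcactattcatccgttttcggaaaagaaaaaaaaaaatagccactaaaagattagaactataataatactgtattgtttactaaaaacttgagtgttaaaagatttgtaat
CHS3: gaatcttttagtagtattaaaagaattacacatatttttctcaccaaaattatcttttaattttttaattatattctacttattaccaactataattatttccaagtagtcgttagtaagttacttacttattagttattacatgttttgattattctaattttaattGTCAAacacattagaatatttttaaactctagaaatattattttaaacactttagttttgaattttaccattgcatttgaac
RPP2A: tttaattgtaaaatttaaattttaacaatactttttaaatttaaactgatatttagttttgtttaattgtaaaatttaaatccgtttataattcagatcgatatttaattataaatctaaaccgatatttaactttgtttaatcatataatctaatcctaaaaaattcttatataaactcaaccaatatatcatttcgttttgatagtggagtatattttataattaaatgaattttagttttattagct
RPP2B: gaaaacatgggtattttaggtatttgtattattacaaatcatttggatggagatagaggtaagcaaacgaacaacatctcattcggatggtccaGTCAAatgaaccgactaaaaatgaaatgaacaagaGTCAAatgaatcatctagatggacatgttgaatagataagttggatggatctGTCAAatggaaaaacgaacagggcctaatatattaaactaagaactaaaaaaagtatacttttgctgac
RPP7: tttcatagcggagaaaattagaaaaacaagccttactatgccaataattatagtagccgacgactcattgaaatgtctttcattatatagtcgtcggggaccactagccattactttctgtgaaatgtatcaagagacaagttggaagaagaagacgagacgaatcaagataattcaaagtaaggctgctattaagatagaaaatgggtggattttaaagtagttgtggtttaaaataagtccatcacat
The core stands 0 times before CSA1, RPP2A and RPP7, 1 time before CHS3 and 3 times before RPP2B. It was found in 44.3% of 17368 windows of the same length before tested genes, and in 51 of 94 windows (54.3%) before genes annotated as NLR. A match is a description of the letters only.

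CHS3 and CSA1 belong to a run of 6 neighbouring tested genes, chr5:5895653-5927041, which were all called lower in asil2-2. The others are AT5G17840, AT5G17850, PSRP6 and AT5G17900, and 5 of the 6 were also called in Ler against Col-0. A second run, of 5 genes from AT5G45460 to AT5G45500 (chr5:18416614-18435524), was lower too, with 4 called in the wild types. There were 3 runs of 4 genes, on chromosome 1 with TLP5, on chromosome 4 with GLB1 and on chromosome 4 with RMA1 and ATHM2. In each of these, 3 genes were called in the wild types. No run of 4 or more neighbours was higher in asil2-2.

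Glucosinolates are sulphur compounds that myrosinases break down into toxins upon wounding. Of 37 listed genes of their synthesis and breakdown, 22 were tested, 2 were higher and 4 lower in asil2-2 (27.3% called, against 11.5% of all models), with a median log2 fold change of -0.45. The median was -0.92 without asil2-1 replicate 2, -0.76 without asil2-2 replicate 2, -0.68 without Col-0 replicate 2 and -0.83 without Col-0 replicate 3 or any single Ler library, where more of the list passed the filter. In Ler against Col-0, 2 were higher and 8 lower. The falls numbered 7 without asil2-1 replicate 2, and the rises numbered 1 without asil2-2 replicate 1 or 2, asil2-1 replicate 2 or 3, Ler replicate 1 or 2 or Col-0 replicate 3. Of the specifier proteins, which set the breakdown product, ESP was higher and NSP1 lower, while the more abundant NSP5 did not pass (143 to 160 CPM in asil2-2 and 125 to 229 CPM in asil2-1, log2 fold change -0.22 ± 0.19, edgeR adjusted p = 0.530). ESP, which directs breakdown to nitriles and epithionitriles, had 8.78, 5.18 and 5.17 CPM in asil2-2, against 0, 0.620 and 0.172 CPM in asil2-1 (4.64 ± 0.54, edgeR adjusted p = 1.72e-05). NSP1, a nitrile specifier, had 1.34, 4.03 and 4.01 CPM in asil2-2, against 23.9, 29.1 and 27.7 CPM in asil2-1 (-3.14 ± 0.26, edgeR adjusted p = 2.83e-07). Neither gene's ranges overlapped between the mutants, and the wild types had 17.3 to 22.9 CPM of ESP in Ler and 0.439 to 1.05 CPM in Col-0.

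On the synthesis side, GSL-OH, an oxygenase that hydroxylates the side chain, had 14.2, 18.98 and 17.9 CPM in asil2-2, against 70.9, 106 and 145 CPM in asil2-1 (-2.66 ± 0.33, edgeR adjusted p = 3.89e-05). MAM1, the first enzyme of chain elongation, fell by 3.46 ± 0.76, with at most 0.431 CPM in asil2-2 and 0.413 to 4.15 CPM in asil2-1, so the lowest asil2-1 library overlapped. The myrosinase TGG2 had 1 count in asil2-2 against 88 in asil2-1, a ratio of 110 (19.2 to 4390). AOP1, of the side chain locus, was higher by 1.14 ± 0.36 (edgeR adjusted p = 0.0477).

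Flowering genes were tested because accessions differ in the FRI and FLC pathway, in which FRI activates the floral repressor FLC and FLC represses FT. Of 14 tested genes, 0 were higher and 5 lower (35.7% called, against 11.5% of all models), with a median of 0.09, which was 0.04 without asil2-2 replicate 2 and 0.03 without asil2-1 replicate 3. The 5 falls became 2 with all 21 libraries in the fit and without asil2-2 replicate 3 or asil2-1 replicate 2, and 3 without asil2-2 replicate 1 or 2 or asil2-1 replicate 1. FRI had 2.93, 2.301 and 2.50 CPM in asil2-2, against 12.6, 10.7 and 11.5 CPM in asil2-1 (-2.16 ± 0.29, edgeR adjusted p = 9.07e-05). FLC had 6.22, 8.05 and 4.34 CPM in asil2-2, against 10.5, 17.56 and 12.5 CPM in asil2-1 (-1.10 ± 0.29, edgeR adjusted p = 0.0193), a call lost without asil2-2 replicate 3 or asil2-1 replicate 2 (adjusted p of up to 0.104). FT, which is scarce in embryos, had 1.71, 0.719 and 0.501 CPM in asil2-2, against 12.1, 2.89 and 8.42 CPM in asil2-1 (-2.93 ± 0.70, edgeR adjusted p = 0.0108), a call lost without asil2-2 replicate 2. FRI, FLC and FT were all lower in Ler than in Col-0 as well. Of the whole list, 0 genes were higher and 6 lower in Ler, with a median of -0.28, and 4 calls were shared. MAF1 (-1.25) and VIN3 (-1.39) were called lower in Ler but not in asil2-2, where their log2 fold changes were 0.23 and 0.73.

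Genes of light harvesting and the photosystems, which heart-stage embryos switch on as they green, fell more often than they rose in asil2-2. Of 33 tested genes, 32 had a negative log2 fold change, 16 were called lower and 1 higher (51.5% called, against 11.5% of all models), and the median was -0.35. In Ler against Col-0, 12 were called lower and 1 higher, with a median of -0.30. The number of falls was 9 without asil2-2 replicate 2 and 7 with all 21 libraries in the fit, and 21 without asil2-2 replicate 3. LHCB4.2, an antenna protein of photosystem II, had 57.3, 52.2 and 75.1 CPM in asil2-2, against 149, 144 and 133 CPM in asil2-1 (-1.21 ± 0.12, edgeR adjusted p = 3.60e-06). LHCB2.3, of the major trimeric antenna, had 13.5, 14.0 and 11.9 CPM in asil2-2, against 51.5, 34.9 and 35.7 CPM in asil2-1 (-1.63 ± 0.18, edgeR adjusted p = 9.18e-06). PSBQ2, of the oxygen-evolving complex, had 105, 132 and 137 CPM in asil2-2, against 207, 207 and 190 CPM in asil2-1 (-0.69 ± 0.10, edgeR adjusted p = 0.000164). None of these 3 genes overlapped between the mutants, and each was lower in Ler than in Col-0 too.

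The only rise on this list was in LHCB1.2 (0.60 ± 0.15), whose near-identical copies LHCB1.1 (-1.55 ± 0.29) and LHCB1.3 (-0.85 ± 0.14) fell, so the level of each copy is uncertain. No gene of the list was called higher without asil2-2 replicate 3 or asil2-1 replicate 1 or 3. Summed over the 5 LHCB1 copies, the level was 1127, 1110 and 1633 CPM in asil2-2, against 1987, 2002 and 1898 CPM in asil2-1, with no overlap. The same sum was 1068 to 1158 CPM in Ler and 1639 to 1926 CPM in Col-0. Of 12 tested genes of Rubisco and the Calvin cycle, 5 were lower and 1 higher (50% called, against 11.5% of all models). The falls were GAPA (-0.64 ± 0.10), CFBP1 (-0.78 ± 0.14), FBA2 (-0.57 ± 0.10), SBPASE and PGK1, all enzymes of carbon fixation, and numbered 5 with each library left out but 2 with all 21 libraries in the fit. The rise was in RBCS2B, a scarce copy of the Rubisco small subunit, and its call was lost without asil2-2 replicate 1 or asil2-1 replicate 2 or 3. The sum over 4 small-subunit copies had a log2 ratio of -0.11 (1269 to 1356 CPM in asil2-2 and 1329 to 1437 CPM in asil2-1, overlapping).

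**Figure D3:**
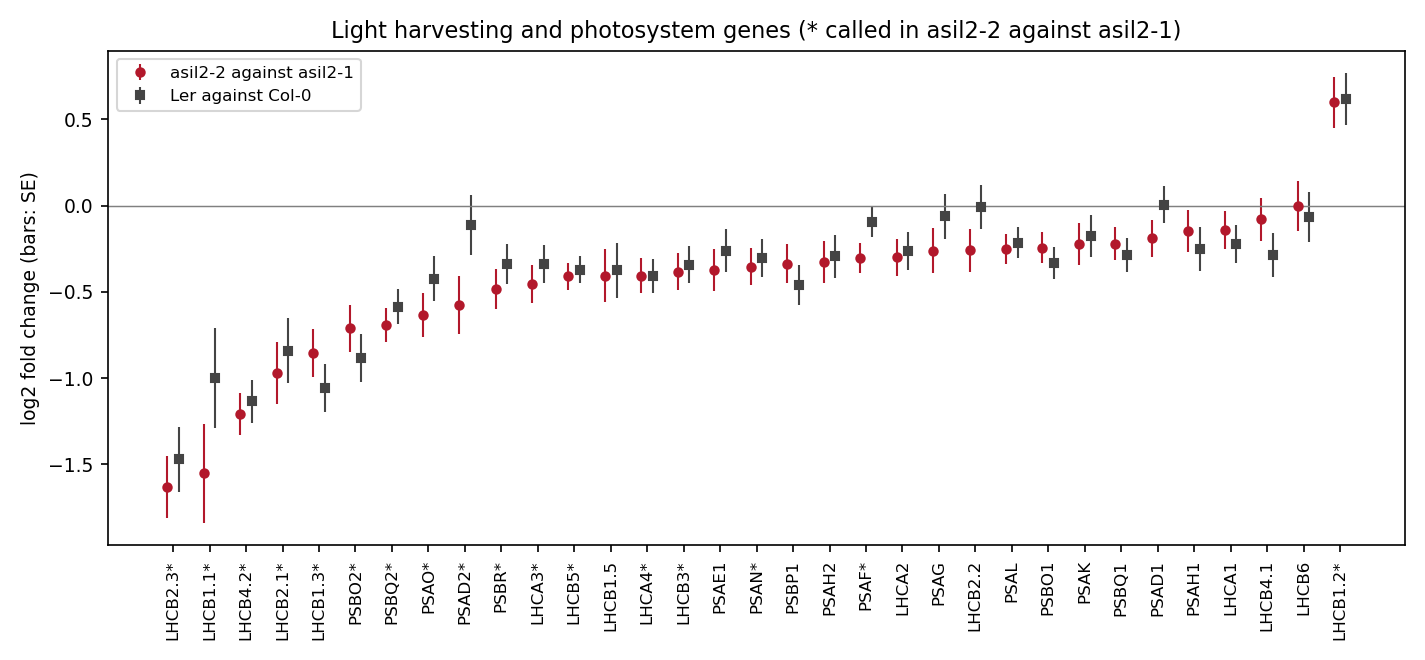
Log2 fold change with its SE for the 33 tested light harvesting and photosystem genes, in asil2-2 against asil2-1 (circles) and Ler against Col-0 (squares), ordered by the mutant contrast; stars mark genes called in the mutants. All but LHCB1.2 lie at or below 0 in the mutant contrast, and 16 are called lower.

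Genes known to be induced by wounding, touch and cold included 8 falls. Of 20 tested, 0 were higher and 8 lower (40% called, against 11.5% of all models), with a median of -0.52, and 12 were lower in Ler against Col-0. The 8 falls became 3 with all 21 libraries in the fit and 5 without asil2-2 replicate 1 or 2 or asil2-1 replicate 2 or 3. RD29A, a cold and desiccation marker, had 0.854, 1.15 and 1.00 CPM in asil2-2, against 5.27, 11.2 and 17.5 CPM in asil2-1 (-3.47 ± 0.48, edgeR adjusted p = 0.000113). JAZ5, a repressor of jasmonate signalling, had 14.4, 11.4 and 10.0 CPM in asil2-2, against 22.3, 31.4 and 32.8 CPM in asil2-1 (-1.26 ± 0.23). ZAT10, CBF2, JAZ1, TCH3, LOX3 and ERF6 were the other falls. Among 15 heat shock genes 1 was called, the regulator HSFA3 (-1.99 ± 0.40), 6.67% against 11.5% of all models. The list's median was -0.52, but it turned to 0.26 without asil2-1 replicate 1 and was -0.86 and -0.97 without asil2-1 replicate 2 and 3. HSP101, a disaggregase, had 83.8, 68.6 and 56.4 CPM in asil2-2, against 202, 41.5 and 41.7 CPM in asil2-1. Among the mutant libraries, asil2-1 replicate 1 alone was thus high. In the wild types, Col-0 replicate 3 was high as well, at 276 CPM against 92.5 and 73.8 CPM in the other Col-0 libraries. In auxin synthesis and response, the conjugating enzymes GH3.2 (-1.37 ± 0.20) and GH3.5 (-0.46 ± 0.10) were lower and no gene was higher among 10 tested (20% called, against 11.5% of all models). The auxin falls numbered 1 with all 21 libraries in the fit.

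Few regulators of the maturation programme, which the ASIL proteins are known to repress, were called between the mutants. Among 18 tested regulators, 1 was called (5.56% against 11.5% of all models), ABI4, an abscisic acid response factor, with 13.7, 14.7 and 18.4 CPM in asil2-2, against 20.9, 27.7 and 21.3 CPM in asil2-1 (-0.58 ± 0.17, edgeR adjusted p = 0.0323). The call was lost without asil2-2 replicate 1 or 2 or asil2-1 replicate 2, 2 regulators were lower without Col-0 replicate 1, and with replicate number as a block 3 regulators were lower. LEC1, LEC2, FUS3, ABI3 and WRI1, the central activators, were not called, with log2 fold changes of -0.10, 0.06, 0.16, 0.20 and -0.0014. FUS3 was called higher in Ler than in Col-0 (log2 fold change 0.58), and ABI4 was not called there (-0.35, edgeR adjusted p = 0.225). Of 9 seed storage protein genes, 2 passed the filter, CRA1 and SESA1, and neither was called.

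Oil body and storage lipid genes were mixed, with 2 higher and 4 lower among 14 tested (42.9% called, against 11.5% of all models) and a median of -0.15, which was -0.10 without asil2-1 replicate 2. OLEO, annotated as oleosin3, a coat protein of oil bodies, had 100.2, 95.5 and 92.6 CPM in asil2-2, against 193, 252 and 175 CPM in asil2-1 (-1.10 ± 0.15, edgeR adjusted p = 7.40e-05). OLE2 and OLEO5 were also lower, as was FAD2, the desaturase that makes linoleic acid (-0.47 ± 0.08). PDAT1, an enzyme of triacylglycerol synthesis (0.65 ± 0.14), and FAE1, of fatty acid elongation (1.71 ± 0.42), were higher. The falls numbered 2 without asil2-1 replicate 2 and the rises 1 without asil2-2 replicate 2, and with all 21 libraries in the fit they numbered 2 and 1.

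Few genes of embryo patterning were called. Of the 33 tested, asil2-2 lay wholly above asil2-1 for 10 and wholly below for 5, while 27.5% of all models failed to overlap. Among 33 tested, PDF2, an epidermal identity factor (0.44 ± 0.10), and ANT (0.44 ± 0.11) were called higher and BBM, of the root stem cell niche, lower (-0.44 ± 0.14, edgeR adjusted p = 0.0480), 9.09% against 11.5% of all models. BBM lost its call in 13 of the alternatives, among them those without asil2-2 replicate 1 or 3 or any single asil2-1 or Col-0 library, PDF2 and ANT were both lost without asil2-1 replicate 1, and ANT also without asil2-2 replicate 3. PDF2, ANT and BBM were not called in Ler against Col-0, where 2 genes of the list were called higher. With the replicate block, 5 patterning genes were higher and 2 lower, and with all 21 libraries in the fit 0 were called. In the ERECTA and stomatal pathway, 3 of 17 tested genes were higher and 3 lower (35.3% called, against 11.5% of all models). MPK3, a kinase of the cascade below the receptor, had 75.5, 70.5 and 64.6 CPM in asil2-2, against 110, 118 and 119 CPM in asil2-1 (-0.72 ± 0.10). The bHLH partners ICE1 (0.52 ± 0.09) and SCRM2 (-0.60 ± 0.11) moved in opposite directions, and SERK2, MKK4 and ERL2 made up the rest. The calls of MPK3, ICE1 and SERK2 were shared with Ler against Col-0, and those of SCRM2, MKK4 and ERL2 were not. The rises numbered 1 without asil2-2 replicate 2 and with all 21 libraries in the fit.

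In DNA methylation and small RNA silencing, 2 of 19 tested genes were lower, the dicer DCL3 (-0.49 ± 0.10) and NRPD1 (-0.60 ± 0.14), the large subunit of RNA polymerase IV. NRPE1, of polymerase V (0.31 ± 0.08), and AGO4 (0.32 ± 0.09) were higher, but 0 were called higher without asil2-2 replicate 2 or asil2-1 replicate 1 or 3, and 1 without asil2-2 replicate 1, asil2-1 replicate 2 or Ler replicate 2. The 4 calls are 21.1% of the list, against 11.5% of all models, and 0 genes were called with all 21 libraries in the fit. Only the call of DCL3 was shared with Ler against Col-0. Among 15 tested cell cycle genes KN, the syntaxin of the dividing cell plate, was called (-0.42 ± 0.11, 6.67% of the list), and not with all 21 libraries in the fit or without asil2-2 replicate 1 or 2 or asil2-1 replicate 1.

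Markers of tissues around the embryo were read in the same libraries. The 17 seed coat markers summed to 1027 to 1596 CPM in asil2-2 and 1508 to 2117 CPM in asil2-1, and to 1216 to 1518 CPM in Ler and 1434 to 1955 CPM in Col-0, and none was at 0 in a whole group. Of 15 tested, TT10, a laccase of flavonoid oxidation (-1.04 ± 0.15), and SBT1.7, a mucilage protease (-0.59 ± 0.10), were lower, and PMEI6 was higher (2.13 ± 0.58), 20% against 11.5% of all models. With the replicate block 4 were lower, as without asil2-1 replicate 1, and 3 without asil2-2 replicate 1. PMEI6 lost its call without asil2-2 replicate 2 or asil2-1 replicate 1. The 13 endosperm markers summed to 290 to 359 CPM in asil2-2 and 269 to 482 CPM in asil2-1, with MINI3 at 0 in asil2-1. Of 7 tested, 4 were lower, namely ALE1 (-0.58 ± 0.12), the imprinted gene FWA (-1.60 ± 0.36), ZOU (-1.10 ± 0.26) and PHE1, 57.1% against 11.5% of all models. The wild types shared 2 of these 4 calls, and neither ALE1 (log2 fold change 0.07) nor ZOU (-0.55) was called in Ler against Col-0. With all 21 libraries in the fit 1 endosperm marker was lower. The part of seed coat or endosperm RNA in the other differences was not tested.

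Grouped by the product names of the annotation, classes chosen after earlier results were known, calls were uneven. Of 94 tested models annotated as NLR, 38.3% were called in asil2-2 against asil2-1, 11 higher and 25 lower, against 11.5% of all models. The shares were 44.4% of 18 defensin-like genes, which encode small secreted cysteine-rich peptides, 40% of 25 C1 domain genes and 22.5% of 209 F-box genes, which encode substrate adaptors of ubiquitin ligases. Pentatricopeptide repeat genes, which process organelle RNA, had the lowest share of the 12 classes, 6.64% of 256, and ribosomal protein genes had 10.8% of 316. In Ler against Col-0 the same classes had 43.6% of NLR, 50% of defensin-like, 40% of C1 domain, 23% of F-box, 5.08% of pentatricopeptide repeat and 10.8% of ribosomal protein genes called. The 5 chromosomes differed little, with 10.7% to 12.4% of models called. With models cut into 5 equal bins of expression, calls were most frequent in the lowest bin (15.0%) and made up 9.72% to 11.6% of the other 4.

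**Figure D4:**
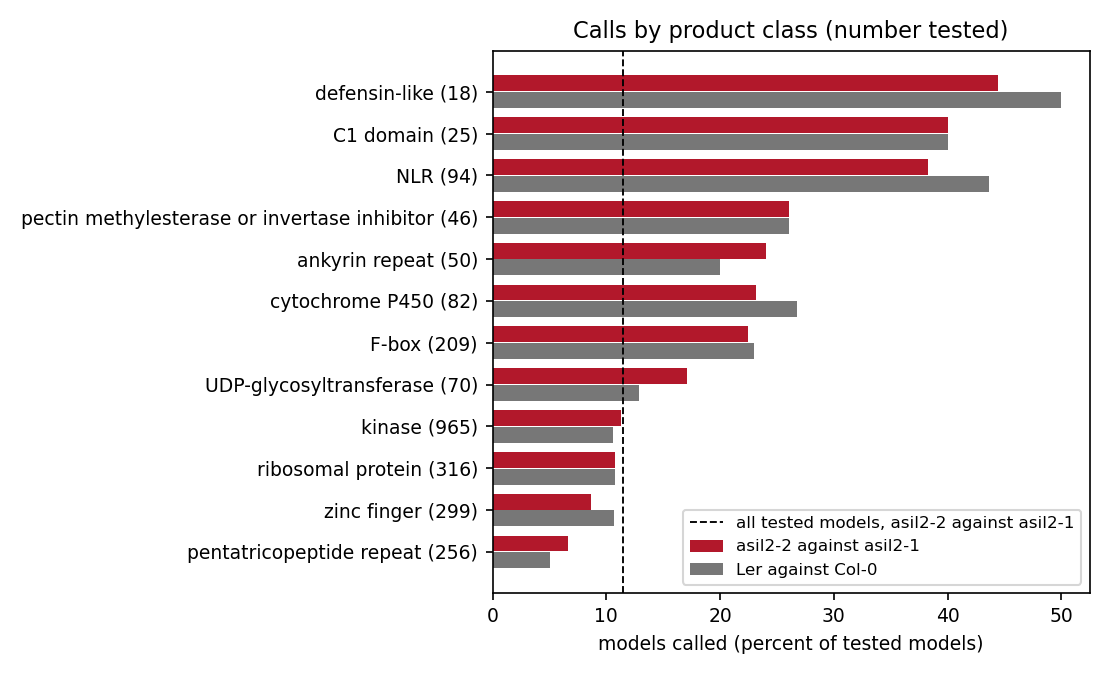
Percent of tested models called in 12 product classes, in asil2-2 against asil2-1 (upper bar of each pair) and Ler against Col-0 (lower bar), with the number tested in brackets; the dashed line is the share of all models in the mutant contrast, 11.5%. Defensin-like, C1 domain and NLR genes exceed 38% in both contrasts.

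Some transcripts of the organelle genomes, which are inherited through the mother, differed. Of 89 tested mitochondrial models 11 were higher and 5 lower in asil2-2 (18% called), and of 70 chloroplast models 1 was higher (1.43%), against 11.5% of all models. These IDs have no match in the annotation used and are given without names. ATMG00910 had 9.15, 11.4 and 9.51 CPM in asil2-2 and 0 counts in asil2-1, at least 56.3-fold higher, and was at least 36.5-fold higher in Ler than in Col-0. ATMG01090 had 0 counts in asil2-2, against 18.7, 15.7 and 16.8 CPM in asil2-1, at least 121-fold lower, and was at least 80.1-fold lower in Ler. The abundant ATMG00090 had 4887, 4941 and 4782 CPM in asil2-2, against 2559, 2684 and 2601 CPM in asil2-1 (0.90 ± 0.08, edgeR adjusted p = 4.21e-07), and 0.85 was its log2 fold change in the wild types. Copies of organelle sequence in the nuclear genome could share these reads.

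The last question was where the contrast between the mutants departed from that between the wild types. The difference of the 2 log2 fold changes was called for 10 of 17546 models (0.057%), 5 in each direction. An unadjusted p under 0.05 was found for 952 models, and a share of about 0.05 would have it with no difference at all. Without the filter on low counts 24 models were called, with DESeq2 21, and with all 21 libraries in the fit 1. At this sample size, 44% of simulated 2-fold differences were recovered, all placed in genes above a floor of mean CPM. In each of the 10, at least 1 group of 3 libraries lay beyond the other 9, and in DDB1B both asil2-2, below, and Ler, narrowly above, did.

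Departures of the mutants from all other groups were found for 4 genes. ASIL2 itself was low in asil2-2 alone, at 9.78 to 10.2 CPM against 38.5 to 57.5 CPM in the other 9 libraries. DDB1B, of the damaged DNA-binding complex, had 29.8, 24.3 and 21.4 CPM in asil2-2, against 69.4, 78.5 and 83.5 CPM in asil2-1, 91.0 to 102 CPM in Ler and 82.5 to 90.2 CPM in Col-0 (difference -1.74 ± 0.16, edgeR adjusted p = 4.06e-05). UBC11, a ubiquitin-conjugating enzyme, was low in asil2-1 alone, with 67.3, 68.0 and 52.6 CPM in asil2-2, against 24.7, 22.9 and 23.7 CPM in asil2-1 (difference 1.399 ± 0.16, edgeR adjusted p = 0.000294). G6PD3, of the plastid pentose phosphate pathway, had 23.9, 29.1 and 23.5 CPM in asil2-2, against 5.91, 8.47 and 5.67 CPM in asil2-1, and 23.59 to 32.3 CPM in the wild types (difference 1.84 ± 0.25, edgeR adjusted p = 0.00293).

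In the other 6 genes Ler stood alone, and asil2-2 lay with the Columbia libraries. 2A6, an oxygenase, had 20.5, 17.83 and 24.4 CPM in asil2-2 and 28.7, 26.0 and 34.0 CPM in asil2-1, against 0.765, 1.02 and 1.52 CPM in Ler and 24.3 to 29.2 CPM in Col-0 (difference 4.09 ± 0.31, edgeR adjusted p = 6.17e-06). Its smaller fall in asil2-2 against asil2-1 (-0.51 ± 0.16, edgeR adjusted p = 0.0488) lost its call in 12 of 19 alternatives. UBP21, AGD9 and MYC3, a jasmonate-responsive transcription factor, are neighbours on chromosome 5 between positions 18965271 and 18976590. UBP21 had 63.8, 63.4 and 51.9 CPM in asil2-2 and 63.0 to 68.0 CPM in asil2-1, against 116 to 130 CPM in Ler. AGD9 had 59.5 to 65.1 CPM in asil2-2 and 55.1 to 63.4 CPM in asil2-1, against 124 to 145 CPM in Ler. All 3 neighbours were higher in Ler than in Col-0 (log2 fold change 1.02, 1.32 and 1.03) and none was called in asil2-2 against asil2-1. NEK3 and GAPB, a Calvin cycle enzyme, were low in Ler alone, at 10.13 to 13.3 CPM and 70.9 to 81.9 CPM, against 23.0 to 39.1 CPM and 139 to 229 CPM in the other 9 libraries. The NEK3 call was lost without asil2-2 replicate 2 or Ler replicate 3. The GAPB call was lost without asil2-2 replicate 2 or 3, asil2-1 replicate 2 or 3, Ler replicate 1 or 2 or Col-0 replicate 1 or 2. The MYC3 call was lost without asil2-2 replicate 1 or 2, asil2-1 replicate 2 or any single Ler or Col-0 library.

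**Figure D5:**
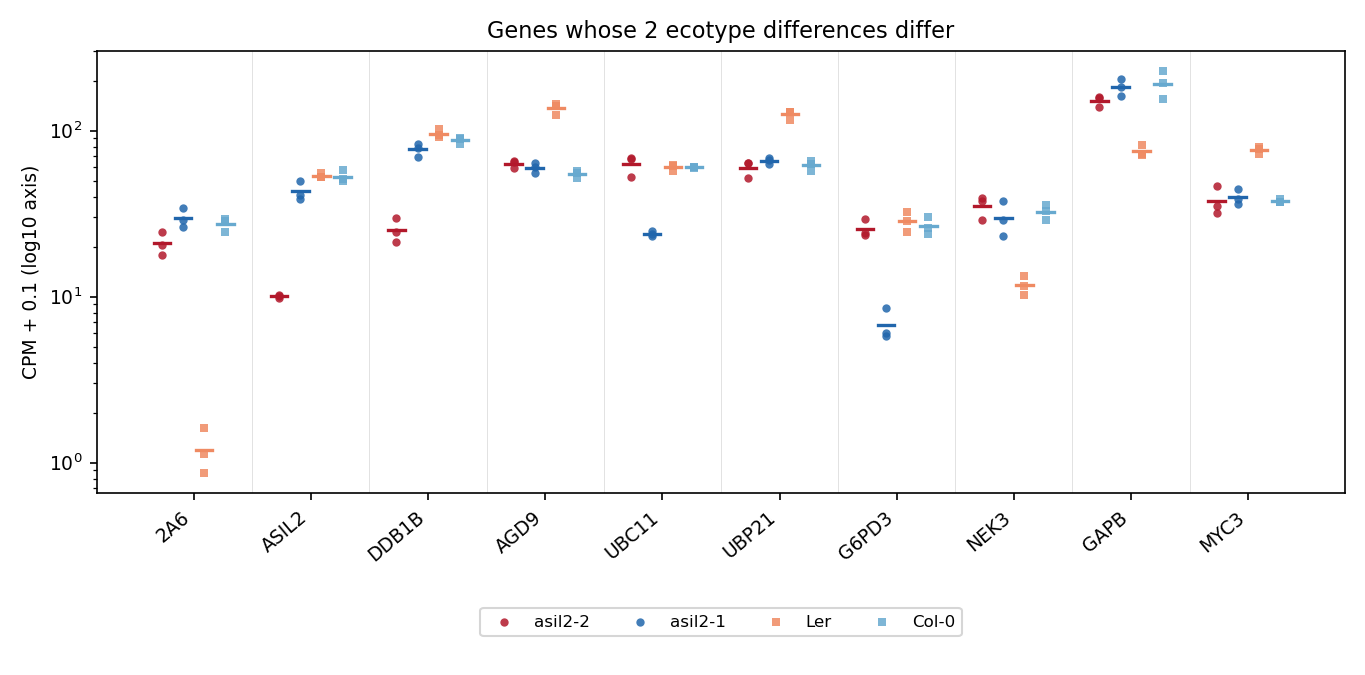
Level of the 10 genes whose 2 ecotype differences differed, as CPM + 0.1 on a log10 axis, for asil2-2, asil2-1, Ler and Col-0 from left to right within each gene; points are libraries and bars are means of 3. In every gene at least 1 group of 3 libraries stands apart from the other 9, as with 2A6 below 2 CPM in Ler and above 17 CPM elsewhere.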

How the data were processed

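RNA was measured in embryos at the late heart stage, in 3 libraries for each of asil2-2, asil2-1, Ler and Col-0. The authors deposited read counts per gene model, 1 table per library, listing only models with reads. Per the submitters' processing notes, which assign no roles, the tools were Bowtie 0.12.7 and edgeR 3.0.8 and the build was TAIR10. The counting rule, the strand and the handling of repeated sequence are unknown (not given in the sources used here). Near-identical, overlapping and antisense genes can share reads. The labels' design text calls the replicates biological.

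Joining the tables gave 26496 models, an unlisted model taking 0. The TAIR10.1 annotation of RefSeq gave names and coordinates to 26100 of them by locus tag, and 396 had no match. All 12 libraries of the 4 groups entered 1 fit in edgeR 4.0.16 (R 4.3.3) with TMM scaling. filterByExpr (minimum count 10, minimum total 15) kept 17546 models. The ecotype contrasts asil2-2 minus asil2-1 and Ler minus Col-0, and the difference between them, were tested with edgeR's quasi-likelihood test. Calls are models whose p, after Benjamini-Hochberg adjustment over all 17546, lay under 0.05. CPM scale each count to the TMM-adjusted library size, and mean log2 CPM uses a prior count of 2. The SE comes from dividing a log2 fold change by the root of its F statistic. Where a group held 0 counts, a floor of 3 counts over the group gives a lower bound, and with 1 to 3 counts the count ratio has an exact 95% interval. These cover counting error only.

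Named were ASIL1, ASIL2 and ER, the 8 largest rises and falls whose mean log2 CPM reached 2 and with no overlap between libraries, up to 6 further ones each way with a symbol, up to 3 called members of each of 17 lists (357 loci) and the 10 models called in the difference. Of the NLR list, 1 called gene is counted but not reported here. Other genes, and the product classes, were named after their values were seen. The contrast, lists and rule were chosen with earlier results of these data known. Alternatives were RLE scaling, no filter, other sets of libraries, a replicate block, DESeq2 1.42.0 and each library left out.

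Same-numbered libraries deviated together from their group means, with correlations over genes of 0.165 to 0.497 between asil2-2 and asil2-1 and of 0.112 to 0.172 between Ler and Col-0. The labels do not say what a number marks. The scripts were tested on simulated data with 17286 genes, of which 200 changed. For asil2-2 against asil2-1, 72% of 2-fold and 99% of 4-fold changes were recovered, and for the difference 44% and 93%. Python 3.11.15 with pandas 2.3.3, numpy 2.4.6 and matplotlib 3.10.9 made tables and figures.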

Additional observations from a re-analysis of the deposited data

Results flagged for a closer look

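The ecotype difference differed between the mutants and the wild types for 10 genes, by the test of the difference itself (edgeR's quasi-likelihood test, Benjamini-Hochberg adjusted p under 0.05). The log2 fold change of asil2-2 against asil2-1, minus that of Ler against Col-0, was 4.09 for 2A6, 1.84 for G6PD3, 1.73 for NEK3, 1.399 for UBC11 and 1.08 for GAPB. It was -2.12 for ASIL2, -1.74 for DDB1B, -1.25 for AGD9, -1.16 for UBP21 and -1.11 for MYC3. The group that stood apart was asil2-2 for ASIL2 and DDB1B (where Ler, at 91.0 to 102 CPM, also lay just above the other 9 libraries, which reached 90.2 CPM), asil2-1 for UBC11 and G6PD3, and Ler for the other 6. The cause was not tested.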

How the results depend on the processing

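With all 21 libraries in the fit, 866 models were called in asil2-2 against asil2-1, 907 in Ler against Col-0, 591 in both and 1 in the difference, and 2 of the added libraries stand apart from their groups. The count for the difference was 24 with no filter on low counts and 21 with DESeq2. With 1 library left out, the counts ran from 1395 (without asil2-2 replicate 2) to 2006 in asil2-2 against asil2-1, 1469 to 2277 in Ler against Col-0, 957 to 1164 in both and 7 to 12 in the difference. All other counts stayed within 1.5 times the main one. Of 76 named genes 70 were called in asil2-2 against asil2-1, 50 in every alternative run and 20 not in at least 1. The uncalled MYC3 in asil2-2 against asil2-1 had a log2 fold change of -0.245 to 0.0318 with 1 library left out, and changed sign without asil2-2 replicate 2 (0.0318) and without asil2-1 replicate 2 (0.008381). Of the 10 differences, that of 2A6 was called in every alternative run. Those of ASIL2, DDB1B, AGD9, UBC11, UBP21 and G6PD3 were lost only with all 21 libraries. With a replicate block, 2404 models were called in asil2-2 against asil2-1, 2446 in Ler against Col-0, 1485 in both and 14 in the difference, and beyond the lists named with their blocked counts no call of a named gene was lost. At this depth genes under about 10 counts in a library were not tested, and 2-fold changes can be missed.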

Other observations

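The double mutant asil1-1 asil2-2 joins a Columbia and a Landsberg allele. It was set on a scale from 0 (mean log2 level of asil2-1 and Col-0) to 1 (mean of asil2-2 and Ler) at 83 nuclear genes. Each was called in the same direction by both contrasts and differed by more than 2 on the log2 scale in both. They are part of the 360 models called in both in the same direction with an absolute log2 fold change over 2 in the mutants. On chromosome 1, 16 of 22 genes lay under 0.25, at the Columbia end, and 0 over 0.75. On chromosome 2, 5 of 8 lay over 0.75, at the Landsberg end, and on chromosome 5, 10 of 25. Chromosomes 3 and 4 had median positions of 0.581 and 0.442, with 6 of 11 and 8 of 17 genes between 0.25 and 0.75. Without replicate 2 of the double mutant, the shallowest library at 1485767 counts, 18 of 22 genes on chromosome 1 lay at the Columbia end and 13 of 25 on chromosome 5 at the Landsberg end. The genes were chosen for their ecotype difference, and the double mutant took no part in that choice.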
